A study of Cyprinus carpio with 18 samples.

Results

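Gastrulation is the stage at which the cells of an early fish embryo move inward and spread over the yolk, so that the germ layers and the body axes are laid down. A dorsal signalling centre, the organizer, secretes antagonists of bone morphogenetic proteins (BMPs), while Wnt, FGF, Nodal and retinoic acid signals pattern the mesoderm, the endoderm and the tail. The features described here are those of common carp (Cyprinus carpio) whose RNA stood apart at this stage: all 3 gastrulation libraries lay above, or all 3 lay below, each of the 15 libraries of the other stages. By this rule 12479 of the 90808 features of the table were kept, 8403 of them higher (9.25% of all features) and 4076 lower (4.49%) at gastrulation. Levels are counts per library scaled to a common size with TMM factors (CPM), and because the rule was applied to these same CPM values, the levels of the members are described without a test of gastrulation against another stage.

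Whole wild-type (WT) embryos of the FFRC No.2 strain, a selected breed spawned naturally, were sampled at cleavage (2 hours after fertilization), blastocyst (6 hours), gastrulation (12 hours), organ formation (20 hours) and hatching (64 hours), and as larvae 1 day after hatching, with 3 libraries a stage. No group was treated, and the groups differed in stage alone as far as the labels say. Per the labels' protocols, equal amounts of RNA from a stage were pooled before library preparation, so the spread between libraries may be technical and p-values measure that spread. Because whole embryos were sampled, more cells of a type and more RNA per cell cannot be told apart.

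Marker lists followed the stage labels. Oocyte and maternal genes (84 features) summed to 3689 to 3846 CPM at cleavage and 740.0 to 835 at gastrulation, skeletal muscle genes (99 features) to 71.2 to 88.2 at gastrulation and 2518 to 2794 at organ formation, and red cell genes (38 features) to 20.5 to 26.5 and 881 to 900.1. Library totals ran from 16326813 to 43270557 counts. The TMM factors of the gastrulation libraries, 0.71 to 0.777, stood below the 0.919 to 1.25 of the other 15. With library totals in place of TMM the split between higher and lower members turned, from 8403 and 4076 to 4730 and 6798, and with the deposited RPKM it was 2941 and 7588. All 4730 and all 2941 were among the 8403, and all 4076 were also lower by library totals and by RPKM. Since every gastrulation factor lay below all the others, a change to library totals can only lower gastrulation against the other libraries. Lower members therefore hold under library totals by construction, which is no sign of greater robustness. With library totals the median log2 change of a tested feature moved by -0.71 against cleavage, -0.65 against blastocyst, -0.35 against organ formation, -0.32 against hatching and -0.40 against the larva. The balance of higher and lower features is relative to the scaling. Members that held under both TMM and library totals are counted beside each gene group. The gene groups were not counted under RPKM, which kept fewer higher members than library totals did.

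Of the 8403 higher members 5641 were protein-coding, 2759 were long non-coding RNAs (lncRNAs) and 3 were transcribed pseudogenes. They made up 11.5% of all protein-coding features and 6.65% of all lncRNAs. The 4076 lower members were 3559 protein-coding features (7.22%), 516 lncRNAs (1.24%) and 1 pseudogene. A lower member must have counts in all 15 other libraries. The median CPM over all stages was 0.904 for tested lncRNAs and 6.33 for tested protein-coding features. The shares of the classes are therefore not directly comparable, and how far level set them was not tested. The median higher member stood 1.99-fold above the mean of its nearest stage, and the median lower member stood 2.28-fold below. A gap of at least 2-fold between the nearest single libraries was left by 2096 higher and 1064 lower members. Of 5658 higher members with at least 10 CPM at gastrulation, 113 stood more than 10-fold above every other stage mean. Of 1167 lower members with at least 10 CPM in every other stage, 6 stood more than 10-fold below. In the other direction the rule reached down to small gaps. ATP-binding cassette sub-family D member 4-like (LOC109049108) was kept with 15, 16.5 and 13.9 CPM at gastrulation beside a highest other library of 13.9, and apoptosis-stimulating of p53 protein 2-like (LOC109065151) was not, at 97.3, 111 and 85.9 beside 85.9. On the lower side agpat3 was kept at 76.7, 79.4 and 73.5 CPM, with a lowest other library of 79.4, and calpain-5-like (LOC109074448) was not, at 13.4, 16.2 and 12.0 beside 16.2.

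The stage nearest in level was most often organ formation. It held the highest other mean for 48.6% of higher protein-coding members and for 64.0% of higher lncRNAs, followed by blastocyst with 23% and 16.7%. Lower protein-coding members also had organ formation as the nearest stage in 49.2% of cases and blastocyst in 19.7%. The plot of gastrulation means against the nearest stage shows both groups.

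**Figure D1:**
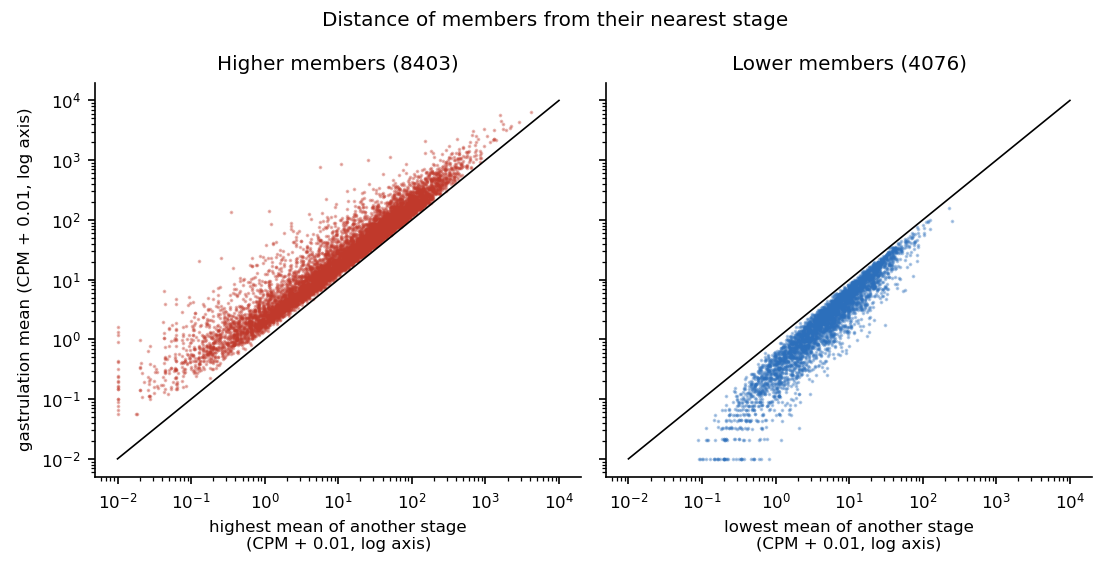
Mean CPM at gastrulation (y axis) against the highest (left, 8403 higher members) or lowest (right, 4076 lower members) mean of another stage (x axis), both with 0.01 added and on log axes, 1 point a feature, with the line of equal levels. The median fold to that mean is 1.99 above it for the higher members and 2.28 below it for the lower members.

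Secreted signals and their antagonists were among the members with the widest gaps. Chordin-like (LOC109103403), an antagonist that binds BMPs in the extracellular space and is made by the organizer, was counted at 1007, 1081 and 952 CPM in the 3 gastrulation libraries. In the other 15 libraries it ran from 0.0489 to 27.9 CPM with a median of 6.59, and its gastrulation mean of 1013 ± 64.5 (SD, n = 3) was 39.4-fold above organ formation, the next stage. Wnt-8a, a ligand that patterns the ventral and posterior mesoderm, had 5 features of this name, and all of them were higher members. The copy LOC109055449 had 63.4, 69.5 and 59.5 CPM at gastrulation and at most 3.36 in another library, a 22.3-fold gap between means. Its companions LOC109102701 and LOC109074104 stood 29.9-fold and 28.4-fold above their next stage. The remaining copies, LOC109102702 and LOC109055436, differed from these in that they were already present early: LOC109102702 had 39.5, 36.5 and 40.5 CPM at cleavage and 73.7, 91.2 and 90.1 at gastrulation, 2.19-fold more. Secreted frizzled-related proteins, which bind Wnt ligands, were also among them. Examples were sFRP2-like (LOC109070845), with 64.0, 66.6 and 49.2 CPM and a 22.1-fold gap, and sFRP1-like (LOC109090573), with 339, 427 and 432 CPM and a 15.4-fold gap. Of 7 sFRP2 features 3 were higher members. BMP2-like (LOC109082902), a ventralizing ligand, was shared more evenly with the stage before: it had 43.7, 29.7 and 32 CPM at blastocyst, 159.9, 157 and 121 at gastrulation and 3.14, 3.47 and 3.99 at organ formation.

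**Figure D2:**
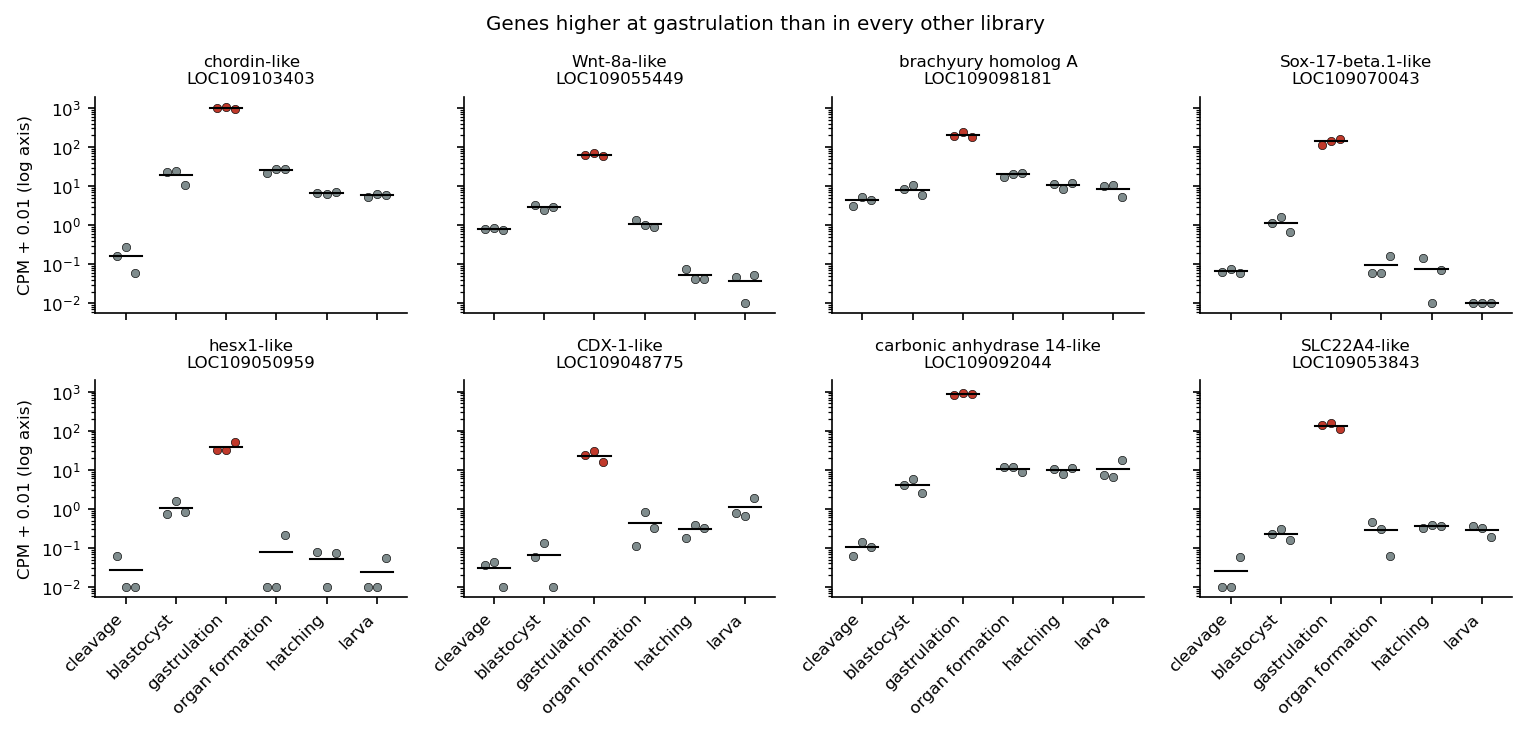
CPM with 0.01 added (y axis, log) in each of the 18 libraries by stage (x axis) for 8 higher members. Points are libraries, red at gastrulation, and lines are stage means; in each gene the 3 red points lie above all 15 grey points, by 10.1-fold (brachyury homolog A) to 388-fold (SLC22A4-like) over the next stage mean.

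Receptors and signal relays of the same pathways are named here for their high gastrulation levels and not for their gaps, so their gaps cannot be set against those of the ligands. Frizzled-7-A (LOC109065552), a Wnt receptor, had 979, 1089.9 and 928 CPM at gastrulation and 218, 259 and 244 at organ formation, 4.16-fold less. The planar polarity protein vangl2, which orients cells during convergent extension, had 675, 706 and 525 CPM and was 2.69-fold above organ formation. PTK7-like (LOC109047599), a Wnt co-receptor of the same process, was at 1358, 1497 and 1169 CPM against at most 199 elsewhere, a 6.92-fold gap. All 3 were thus detected at every stage and highest at gastrulation. FGF receptor 4-like (LOC109099356) had 451, 513 and 571 CPM and a 3.43-fold gap. The phosphatase DUSP6-like (LOC109057235), a feedback inhibitor of FGF signalling, had 394, 441 and 323 CPM and a 3.33-fold gap. The chemokine receptor CXCR4-like (LOC109054513), which guides endoderm cells in zebrafish, had 129.9, 153 and 121 CPM and was 6.36-fold above blastocyst. Some receptors and membrane ligands outside these pathways were named for the width of their gaps, namely reticulon-4 receptor-like 1 (LOC109079596, 71.9-fold), semaphorin-4G-like (LOC109101987, a membrane-bound guidance ligand, 31.0-fold), proteinase-activated receptor 1-like (LOC109045978, 27.3-fold) and lutropin-choriogonadotropic hormone receptor-like (LOC109060903, 20.4-fold), with gastrulation means between 19 and 86.1 CPM. Of all features with these names, 1 of 6, 2 of 6, 4 of 12 and 1 of 2 were higher members, in the same order.

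Transcription factors of every germ layer were among the higher members. Brachyury homolog A (LOC109098181), the T-box factor of mesoderm and notochord, had 189.6, 247 and 179 CPM at gastrulation and 3.03 to 22.3 in the other libraries, a 10.1-fold gap. Among the tail mesoderm factors the pattern differed between features. TBX6L-like LOC109113455 was shared with blastocyst (81.2, 70.8 and 51.5 CPM, then 321, 385 and 291), whereas TBX6L-like LOC109060377 was shared with organ formation (107, 125 and 91.3, then 18.2, 22.9 and 19). Sox-17-beta.1-like (LOC109070043), of the SOX17 group of endoderm factors, was near 0 outside gastrulation, with 116, 144 and 164 CPM, at most 1.61 elsewhere and a 126-fold gap. The endoderm and heart factors gata6 (359, 435 and 315 CPM) and GATA-4-like (LOC109065793, 159, 161 and 134) persisted at organ formation, where their levels were 3.48-fold and 2.12-fold lower. The endoderm genes thus ranged from a factor near 0 outside gastrulation to factors that stayed on. HNF3-gamma-like (LOC109109293), a forkhead factor of endoderm and notochord, had 256, 289.8 and 212 CPM and a 6.01-fold gap.

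Hesx1, a homeobox repressor of the anterior neural plate, had 4 features, of which 3 were members. LOC109050959 (31.9, 32 and 50.3 CPM) and LOC109050960 (75.2, 74.4 and 85.1) stood 36.6-fold and 34.2-fold above blastocyst, LOC109062940 stood 5.50-fold above it, and LOC109103176, at 3.07, 2.67 and 3.24 CPM, overlapped with blastocyst. ZIC2-like, a zinc finger factor of the neural plate, had copies at 857, 944 and 806 CPM (LOC109061652) and 579, 631 and 567 CPM (LOC109069274), with gaps of 10.3-fold and 14.5-fold over organ formation. CDX-1, a caudal homeobox factor of the posterior body, had 5 features and all were members. The most restricted, LOC109048775, had 24.1, 29.3 and 16 CPM and a 21.3-fold gap, and the most abundant, LOC109102671, had 223, 239.6 and 189 CPM and a gap of 8.06-fold. Its relative cdx4 had 331, 397 and 342 CPM and a 7.55-fold gap. The named caudal features had stage means of at most 1.03 CPM before gastrulation, and cdx4 and LOC109102671 were still detected at organ formation. PRDM14-like, known in mammals as a factor of pluripotent and germ cells, had both of its copies among the members, LOC109104337 with 123, 121 and 125 CPM (31.3-fold) and LOC109050428 with 78.8, 96.0 and 93.2 (7.74-fold). ZEB1, a repressor of epithelial genes, had 6 features that differed among themselves. LOC109055042 (38.2, 40.9 and 43.4 CPM) was 32-fold above any other stage, LOC109072770 and LOC109072759 were 2.06-fold and 1.82-fold above, and the other 3 were not members.

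The matrix, adhesion and epithelial members with the highest gastrulation levels were also detected at organ formation, at lower levels. The lists they come from were mixed, with 32 of 90 tested adhesion, matrix and migration features and 29 of 86 epidermal features called lower at gastrulation than at organ formation, beside 28.1% of all tested features. Laminin beta-1-like (LOC109055667), a basement membrane chain, had 3382, 3503 and 2469 CPM at gastrulation and 0.245 to 712 elsewhere. Fibronectin-like (LOC109051686), the matrix protein on which mesoderm cells migrate, had 479, 584 and 598 CPM and a 4.61-fold gap. Cadherin-2-like (LOC109097614), the N-cadherin of mesoderm and neural tissue, had 719, 816 and 623 CPM and a 1.88-fold gap. None of these 3 was at its gastrulation level in any other library, and all had organ formation next. Keratin 18 (LOC109047943) and keratin 8 (LOC109074705), which pair in simple epithelia, had 2471, 2924 and 2621 and 1718, 2027 and 1648 CPM and were 4.04-fold and 2.48-fold above organ formation. Of the lipid handling genes, apolipoprotein Eb (LOC109058451) had 5561, 6010.0 and 5229 CPM and microsomal triglyceride transfer protein-like (LOC109108977), which loads lipid onto lipoproteins, had 1386, 1632 and 1344. Apolipoprotein A-I-like (LOC109074514) was no member, with 1279, 1426 and 1145 CPM at gastrulation and 3172, 2919.6 and 3272 at hatching.

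Enzymes and carriers were also among the members with wide gaps. SLC22A4-like (LOC109053843), of a family of organic cation and carnitine transporters, had 138, 153 and 109 CPM at gastrulation and never more than 0.463 in another library, a 388-fold gap. Of 4 features of this name it was the only member. NEURL1-like (LOC109074496), an E3 ubiquitin ligase of the neuralized family, had 735, 843 and 691 CPM and a 133-fold gap, whereas the other feature of that name was no member. Carbonic anhydrase 14-like (LOC109092044), which interconverts carbon dioxide and bicarbonate, had 805, 917 and 889 CPM and a 81.1-fold gap, and was 1 of 2 features of its name. The other was no member. All 3 named members were at most 17.3 CPM in any library of another stage. Carboxypeptidase O-like (LOC109049278, 33.0-fold), TRIM16-like (LOC109083459, 23.3-fold), NLRP12-like (LOC109082113, 23.9-fold) and the cationic amino acid transporter 2-like LOC109051770 (21.2-fold) followed. Higher members were 1 of 2 carboxypeptidase O, 3 of 14 TRIM16-like and 2 of 7 cationic amino acid transporter 2 features. Of 21 NLRP12 features 3 were higher and 1 was lower. Vitelline membrane outer layer protein 1-like had 18 features, of which 3 were members, and LOC109059724 had 1384, 992 and 978 CPM against at most 63.2 elsewhere.

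Retinoic acid metabolism was represented on several sides. CRABP2-like (LOC109111950), a carrier of retinoic acid in the cytosol, had 288, 293 and 306 CPM and a 13.0-fold gap. CYP26A1 (LOC109095343), which degrades retinoic acid, had 271, 268 and 252 CPM and was 4.67-fold above blastocyst, and its copy LOC109052662 was 2.65-fold above. The retinal reductase DHRS3 (short-chain dehydrogenase/reductase 3, LOC109072700) had 158, 183 and 169.7 CPM and a 10.1-fold gap.

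Lists of gene groups put these members in proportion. They were chosen with earlier results of these data known, and each count stands beside the same for all features. Of 64 Wnt ligand and planar polarity features 44 were higher members and 1 was lower. Over the whole table, edgeR called 6249 of 69265 tested features (9.02%) higher than each of the 5 other stages at an adjusted p under 0.05 and 4173 (6.02%) lower, or 3286 and 6986 with library totals. The rule used the same contrast, so these calls are not counted over the lists. T-box factors of mesoderm and tail had 6 of 12 features as higher members, organizer and axial mesoderm genes 23 of 53, BMP and Nodal genes 20 of 46, FGF genes 24 of 44, presomitic mesoderm and segmentation genes 30 of 59, endoderm genes 11 of 17 and retinoic acid genes 13 of 26. Adhesion, matrix and migration genes had 42 of 93, neural plate genes 36 of 100 and epidermal genes 29 of 100, beside 11.5% of all protein-coding features. Lower members in these 11 lists numbered at most 4 (4.3% of the adhesion, matrix and migration genes), beside 7.22% of all protein-coding features. The shorter lists are too small for a lack of lower members to be read from them. With library totals as well as TMM, 40 Wnt and polarity, 38 adhesion, 33 neural plate, 25 segmentation, 23 epidermal, 21 FGF, 11 retinoic acid and 10 endoderm features held, and all 23 organizer, 20 BMP and Nodal and 6 T-box features did. Of all 49264 protein-coding features 3225 were higher members under both scalings, out of 5641 with TMM.

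Against organ formation, the stage most often nearest, edgeR called 19.8% of all tested features higher and 28.1% lower at gastrulation, with a median log2 change of -0.25 (13745 and 19468 features; 9620 and 24687 with library totals). This contrast holds the libraries that the rule used, and many of the listed features are members, so the following counts describe the lists and are no test of them. The Wnt and polarity list had 43 of 64 called higher and 8 lower, with a median of 1.55. BMP and Nodal genes had 28 of 44 higher and 5 lower (median 1.92), organizer genes 27 of 49 and 9 (median 1.54), FGF genes 24 of 40 and 9 (median 1.18) and endoderm genes 13 of 16 and 2 (median 1.63). Neural plate genes were split, with 40 of 93 higher, 33 lower and a median of 0.13, and so were epidermal genes, with 31 of 86 higher, 29 lower and a median of 0.03; with library totals the last 2 medians were -0.23 and -0.19.

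Lists of later organs and of the oocyte held few higher members, in part at a share near that of all protein-coding features. Hatching gland genes had 3 higher members of 35 (8.57%) and yolk and lipid export genes 4 of 54 (7.41%), beside 11.5% of all protein-coding features. Under both scalings 3 held in each list, beside 3225 of all 49264 protein-coding features. No shortfall of hatching gland members is read from these counts. Of the yolk and lipid genes 35 of 51 tested were lower at gastrulation than at organ formation and 3 higher. Among all tested features 28.1% were lower and 19.8% higher in that contrast. The 3 hatching gland members were copies of PRDM1-like, a zinc finger factor of prechordal plate and hatching gland fate, LOC109065421 at 142, 186 and 167 CPM and LOC109065422 at 148, 167 and 131 among them. Maternal genes gave 5 higher members of 84, of which 4 held under both scalings. Of the 83 tested, 58 were lower at gastrulation than at cleavage, beside 22.2% of all tested features. Over all tested features that contrast had 15377 lower and 34055 higher, or 21401 and 27755 with library totals. Compared with organ formation, 69 of the 83 were higher at gastrulation, beside 19.8% of all tested features. Skeletal muscle and red cell genes gave no higher member, and muscle genes gave 2 lower ones. Against the larva, where edgeR called 39.6% of all features lower and 26.7% higher at gastrulation, 72 of 75 tested muscle genes were lower and none was higher. Some genes with similar levels in the stage before were also outside the rule. Sal-like 4 (LOC109112715) had 1057, 1141 and 1015 CPM at blastocyst and 971, 1209 and 1034 at gastrulation. The Nodal co-receptor of the cripto family (LOC109074545) had 119, 85.7 and 92.8 at blastocyst and 107, 91.4 and 96.4 at gastrulation. Lens crystallins had 1 higher member of 113, gamma-crystallin M3 (LOC109061062), at 16, 18.6 and 15.3 CPM.

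**Figure D3:**
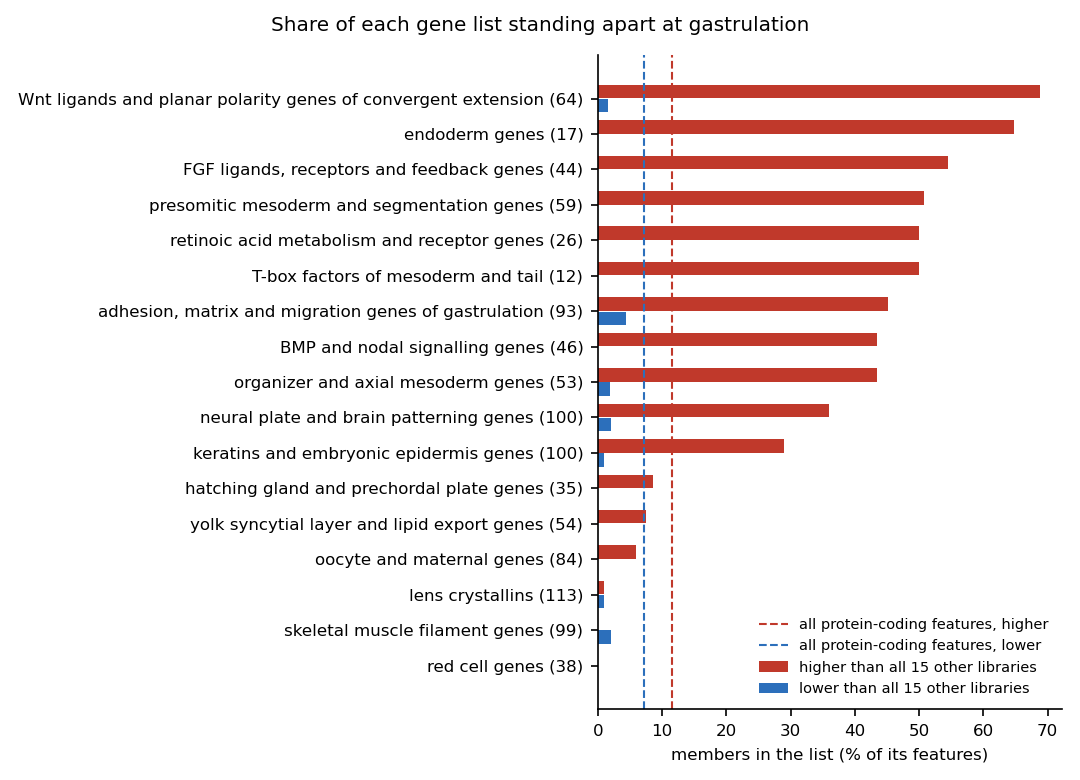
Percent of the features of each of 17 gene lists (y axis, number of features in parentheses) that were higher (red) or lower (blue) members, with dashed lines at the 11.5% and 7.22% of all protein-coding features. Wnt and planar polarity genes have the largest share of higher members (68.8%), and red cell genes have none.

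A further group was noticed among the members themselves and is given without a test. Of 250 features with a splicing product name 172 were higher members and 3 were lower, beside 11.5% higher and 7.22% lower members among all protein-coding features. With library totals 133 of the 172 also held, beside 3225 of all 5641 higher protein-coding members. PRPF8-like (LOC109088506), the core protein of the spliceosome, had 3231, 3709 and 3089 CPM at gastrulation and 406 to 986 elsewhere, and hnRNP U-like (LOC109061092), a nuclear RNA binding protein, had 1772, 1843 and 1476 CPM and a 5.35-fold gap. Both were detected in all 18 libraries.

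The lower members were genes present before and after gastrulation and at their lowest in its 3 libraries. Prostaglandin-endoperoxide synthase 2 (ptgs2), the inducible cyclooxygenase, had 1.64, 1.46 and 2.15 CPM at gastrulation and 28.8 to 63.3 in the other 15 libraries, with a median of 38. Its gastrulation mean was 17.6-fold below organ formation, the lowest other stage. Carnitine O-acetyltransferase (crat), which moves acetyl groups between carnitine and coenzyme A, had 0.341, 1.2 and 1.83 CPM and was 15.7-fold below. Of 6 features of this name 4 were lower members, among them LOC109061963 at 2.73, 3.12 and 3.45 CPM and 8.23 to 51.4 elsewhere. In both genes the means of the other 5 stages lay between 17.6 and 50.3 CPM. The V-type proton ATPase subunit E1-like LOC109065813, of the pump that acidifies endosomes and lysosomes, had 1.64, 1.82 and 1.90 CPM and was 10.3-fold below. Of 4 features of this name 2 were lower members.

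Several of the lower members act on the actin or septin cytoskeleton. Neurabin-1-like (LOC109094553), an actin-binding scaffold, had 0.682, 0.488 and 1.69 CPM and was 13.2-fold below its lowest other stage. Supervillin-like (LOC109099546), a membrane linker of actin and myosin, had 282, 265 and 252 CPM at cleavage and 4.50, 6.58 and 9.08 at gastrulation, with 53.5 CPM as the lowest value of any other stage. Another copy, LOC109096621, had 8.80, 9.54 and 15.9 CPM, and 6 of the 15 features of this name were lower members and none was higher. Septin-9-like (LOC109055019, 9.99-fold below) had 4 lower members among 6 features, and cortactin-binding protein 2-like had both of its features, LOC109109982 (9.12-fold) and LOC109110486 (6.05-fold). Palmdelphin-like (LOC109053521, 14.3-fold), neurobeachin-like 2 (LOC109063167, 10.4-fold), the splicing regulator muscleblind-like 2a (LOC109059193, 8.92-fold), EGF receptor-like (LOC109050338, 8.70-fold) and vav2 (8.44-fold) completed the 12 protein-coding lower members with the widest gaps among those with at least 10 CPM in every other stage. Their gastrulation means lay between 0.953 and 6.72 CPM. Lower members were 1 of 3 palmdelphin, 4 of 5 neurobeachin-like 2, 2 of 3 muscleblind-like 2a and 1 of 6 EGF receptor features.

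**Figure D4:**
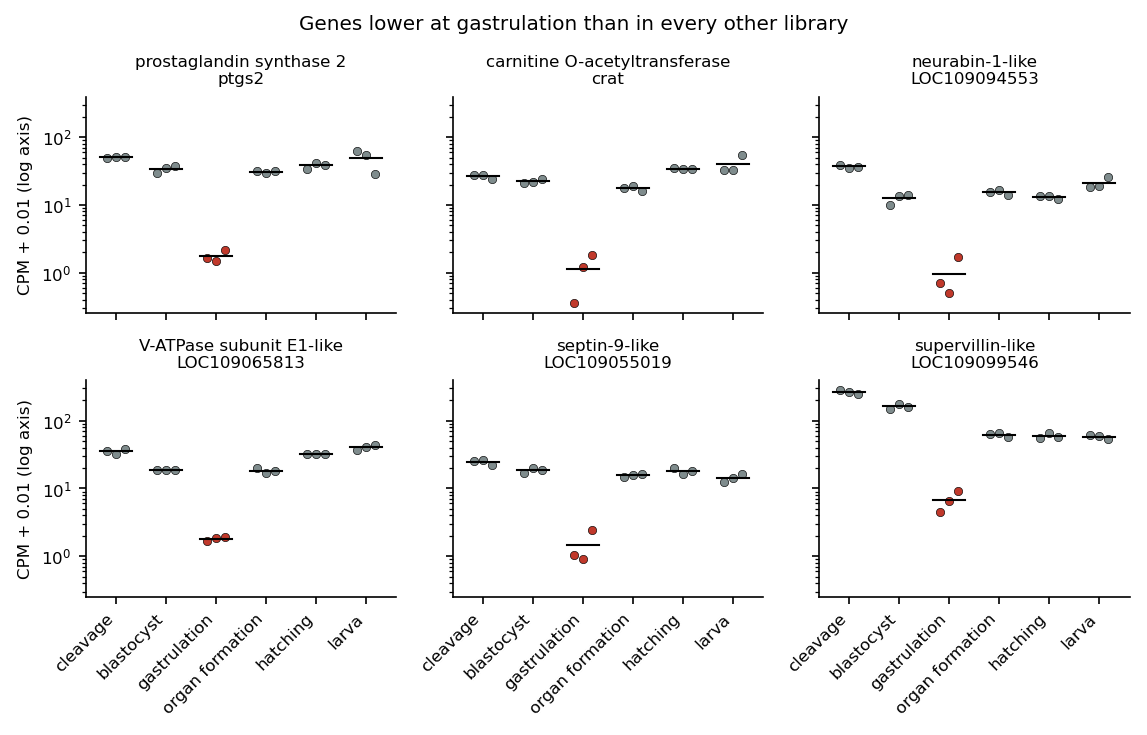
CPM with 0.01 added (y axis, log) in each of the 18 libraries by stage (x axis) for 6 lower members. Points are libraries, red at gastrulation, and lines are stage means; the 3 red points lie below all 15 grey points, by 8.62-fold (supervillin-like) to 17.6-fold (ptgs2) under the lowest other stage mean.

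Among lists drawn up after the members were seen, and so given without a test, 87 of 454 features with endosome and membrane trafficking names were lower members and 22 were higher, 25 of 90 unconventional myosins were lower and 9 higher, and 11 of 63 V-type ATPase features were lower and none higher. The shares among all protein-coding features were 7.22% lower and 11.5% higher. As sums over a whole list, the myosins had 1025 to 1189 CPM at gastrulation and 922 to 968 at organ formation. The endosome and trafficking features had 6264 to 6898 and 6014 to 6129.8, so neither sum was lowest at gastrulation. The V-type ATPase sum was lowest there, at 557 to 601 beside 795 to 848 at organ formation. With library totals 8 of the 22 higher endosome and trafficking members and 6 of the 9 higher myosins held. All lower members of these lists held too, but the scaling factors fix that outcome, so the directions cannot be compared in this.

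The median member was longer than the median of its class. Relative length was inferred from the ratio of counts to deposited RPKM. Its median, set to 1 for all tested features of a class, was 1.05 for higher and 1.21 for lower protein-coding members, and 1.08 and 1.26 for lncRNAs. The spreads overlapped widely. Quartiles were 0.67 to 1.6 for higher and 0.813 to 1.79 for lower protein-coding members, beside 0.643 to 1.52 for all tested ones. The median CPM over all stages, not per length, was 24.8 for higher and 10 for lower protein-coding members, beside 6.33 for all tested ones. These levels include the gastrulation libraries that the rule used, so they depend in part on the selection.

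Among lncRNAs the widest gaps on the higher side were of the size seen in coding genes. MSTRG.19976, a transcript assembled by the authors and without a gene name, had 15.9, 18.8 and 26.6 CPM at gastrulation and at most 0.261 elsewhere, a 170.4-fold gap. MSTRG.35141 (27.9, 18.7 and 23.3 CPM, 96.1-fold), LOC109053714 (24.8, 21.5 and 21.8 CPM, 34.2-fold) and MSTRG.100920 (39.7, 45.3 and 42.4 CPM, 30.1-fold) followed. Only 23 lower lncRNAs had at least 10 CPM in every other stage, and none of them was more than 10-fold lower at gastrulation. Of 1143 lower protein-coding members at that level 6 were, so no difference between the classes is read from this. Among these lncRNAs the widest gap belonged to MSTRG.47356, with 2.52, 2.90 and 3.69 CPM and 5.24-fold below the larva. MSTRG.48511 (3.42-fold), MSTRG.96220 (2.97-fold) and MSTRG.50267 (2.79-fold) followed, and MSTRG.96220 differed from the others in that it had 127, 171 and 119 CPM at hatching.

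The carp genome is duplicated, and many product names are held by a pair of features. Of 4886 such pairs of tested features 1032 had at least 1 higher member, and in 376 of these both copies were higher. Thus 752 of the 1408 higher members in pairs (53.4%) had a copy that was higher too, where 14.4% of all paired features were higher members. Lower members occurred in 738 pairs and in both copies of 163, so that 326 of 901 (36.2%) had a lower copy, beside 9.22% of paired features. In 24 of the 4886 pairs 1 copy was higher and the other lower at gastrulation. This stands beside 14.4% higher and 9.22% lower members among all paired features. Opposite pairs were not counted with library totals. Protein kinase C delta, a signalling kinase, was such a pair: LOC109063612 had a mean of 24.5 ± 4.24 CPM at gastrulation and 1.5 ± 0.487 at blastocyst, and LOC109054463 had 2.93 ± 1.00 and 173 ± 28.3. At organ formation, hatching and in the larva the means were 12.8 ± 3.48, 11.2 ± 2.17 and 13.1 ± 1.57 CPM for LOC109063612 and 10.6 ± 0.792, 10.3 ± 0.61 and 13.0 ± 1.48 for LOC109054463, and the smaller of the gaps of both copies to the nearest stage was 1.87-fold. Glia-derived nexin, a serine protease inhibitor, was another, with 89.8 ± 4.06 CPM at gastrulation for LOC109091582 and 5.26 ± 1.13 for LOC109053853, and at organ formation, the nearest stage, 49.2 ± 3.45 and 9.15 ± 1.33; these 2 pairs were chosen after their values were seen. Gamma-adducin, a membrane skeleton protein, had 5 features of its name, of which LOC109053718 (112, 79.9 and 71.9 CPM, 39.3-fold above) and LOC109053706 (313, 339 and 328, 20.3-fold above) were higher members and LOC109058568 (56.1, 62.4 and 64.2, at least 81.9 elsewhere) was a lower one. Neurabin-1 had 4 lower members and 1 higher, LOC109091404, at 72.0, 66.9 and 66.3 CPM, among 9 features; with library totals LOC109091404 was no member. A shared product name does not show that features are copies of 1 gene, and near-identical copies may share reads. In the gene order of assembly ASM1834038v1, 36765 features were found, and neighbours were taken among these placed features only. Of the 4455 higher members placed, 28.0% were next to another higher member, beside 22.6% of all placed features. Of the 2835 lower members placed, 19.6% were next to another lower one, beside 14.7%.

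Changes between the other stages were tested with edgeR in contrasts that hold no gastrulation library, although the fit shares its filter, its estimate of spread and its scaling with them. Higher members could pass the count filter through the gastrulation libraries alone, as 369 of the 8177 did, and values from a fit and filter on the other 15 libraries, added after the data were seen, are given beside the first counts. From blastocyst to organ formation, the stages on both sides, 4410 of the 8177 higher members that passed the count filter rose (53.9%) and 1271 fell (15.5%), beside 50.5% and 23.6% of all tested features. In the fit on 15 libraries 44.5% rose and 22.6% fell, beside 46.2% and 27.6%. Of the 4076 lower members, which all passed, 673 rose (16.5%) and 1916 fell (47.0%). In the fit on 15 libraries 482 rose (11.8%) and 2365 fell (58.0%), and leaving out blastocyst replicate 3 gave 439 that rose. From organ formation to hatching the directions were opposite: 2798 higher members fell (34.2%) and 207 rose (2.53%), while 1477 lower members rose (36.2%) and 170 fell (4.17%), or 106 without hatching replicate 1, beside 17.4% of all features that rose and 12.2% that fell. In the fit on 15 libraries 2339 higher members fell (30%, beside 10.8% of all tested features) and 1528 lower members rose (37.5%, beside 18%). There 173 higher members rose (2.22%) and 151 lower members fell (3.7%). From cleavage to blastocyst 2878 higher members rose (35.2%, beside 15.8% of all features) and 447 fell (5.47%, beside 6.52%), or 172 to 223 without any 1 of cleavage replicates 2 and 3, blastocyst replicate 3 and the 3 gastrulation libraries. In the fit on 15 libraries 3900 rose (49.9%) and 191 fell (2.45%), beside 22.7% and 3.5% of all tested features. Of lower members 113 rose (2.77%) and 584 fell (14.3%), but this balance depended on the fit. The fit on 15 libraries gave 520 that rose (12.8%) and 264 that fell (6.48%), beside 22.7% and 3.5% of all tested features. No filter gave 374 and 245, a minimum of 1 CPM in 3 libraries gave 484 and 266, and leaving out cleavage replicate 2 gave 460 and 189. From hatching to larva 125 higher members rose (1.53%, beside 5.32% of all features), or 58 without hatching replicate 1 or 3 and 82 without larva replicate 3, and 1680 fell (20.5%, beside 6.13%), or 1040 without hatching replicate 1 and 1001 without hatching replicate 3. Of lower members 391 rose (9.59%) and 134 fell (3.29%), or 185 to 198 and 62 to 88 without hatching replicate 1 or 3 or larva replicate 3 (86 fell without larva replicate 2). In the fit on 15 libraries 88 higher members rose (1.13%) and 1274 fell (16.3%) from hatching to larva. There 443 lower members rose (10.9%) and 114 fell (2.8%), beside 5.56% and 4.92% of all tested features. The rule fixes on which side of gastrulation the other stages lie and does not set their order directly. It does bound their levels by that of gastrulation, and all tested features carry no such bound. A large rise of a higher member, or a large fall of a lower one, could take it out of the rule. The shares that rose or fell thus depend in part on the selection, and how far was not tested.

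**Figure D5:**
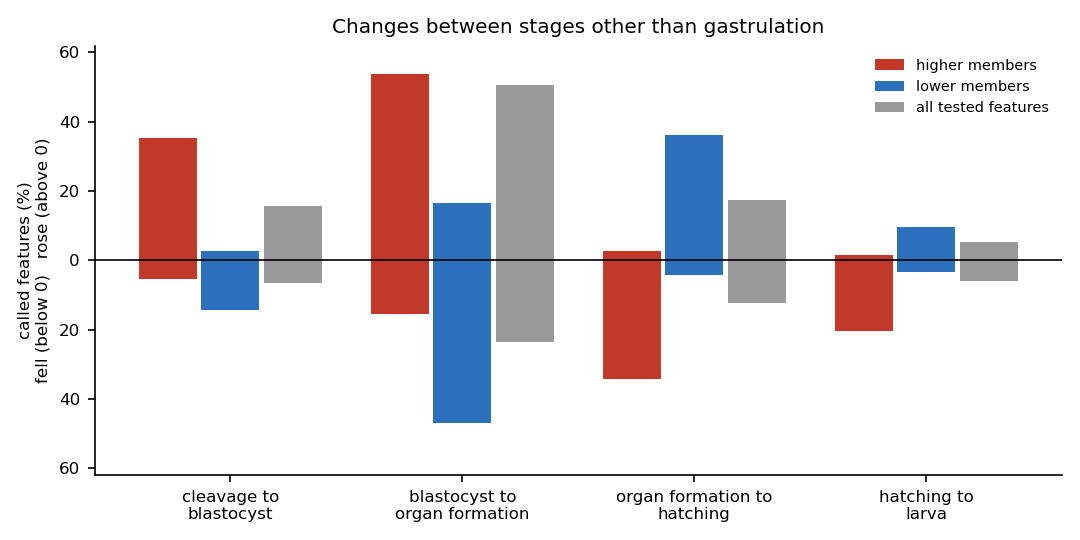
Percent of tested features (y axis) that rose (above 0) or fell (below 0) in edgeR at an adjusted p under 0.05 in each of 4 steps between stages other than gastrulation (x axis), for higher members (red), lower members (blue) and all tested features (grey). From organ formation to hatching 34.2% of higher members fell, against 12.2% of all features, and 36.2% of lower members rose, against 17.4%. The bars are from the fit on all 18 libraries, whose filter 369 of the 8177 higher members passed through the gastrulation libraries alone. In the fit on the 15 libraries of the other stages, not drawn, these shares are 30% against 10.8% and 37.5% against 18%.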

How the data were processed

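RNA of 18 libraries, 3 for each of 6 stages, was measured by strand-specific sequencing after removal of ribosomal RNA, per the labels' protocols. The deposited counts are whole reads per feature, with no normalization by the authors. The deposited RPKM, made by the authors, served for 1 alternative. The submitters' processing notes list HISAT2, StringTie 1.3.3b, featureCounts and edgeR. Parameters, genome build and annotation were not given in the sources used here. No coordinates or sequences are printed. Feature names were taken from the deposited table and from RefSeq genes of assembly ASM1834038v1, which holds 36765 of the 58294 NCBI GeneIDs. The treatment of reads that match near-identical copies is likewise not given, and values of single copies are uncertain.

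Members were found from CPM with TMM factors (edgeR 4.0.16, R 4.3.3), with no minimum level. Stages were compared with edgeR's quasi-likelihood test on the 69265 features that passed filterByExpr, with 1 coefficient per stage over all 18 libraries and Benjamini-Hochberg adjustment over the tested features of each of 9 contrasts, and a call was an adjusted p under 0.05. Folds are ratios of stage means. The text names the 24 higher and 12 lower protein-coding members with the widest fold to the nearest stage and at least 10 CPM (gastrulation for higher, every other stage for lower), 4 lncRNAs a side by the same measure, genes of each list with the highest gastrulation mean, copies sharing their product names, and features just inside and just outside the rule. TBX6L-like and other list genes in the text come from that rule, and the 2 opposite pairs do not.

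The members and the 17 gene lists were chosen with earlier results of these data known. Genes whose names did not belong to a list were taken out after the files were read, by name, and 4 further lists were added after values were seen. Library totals, DESeq2 1.42.0, other filters, a replicate block and leaving out each library were tried as alternatives. No library was left out otherwise.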

Additional observations from a re-analysis of the deposited data

How the results depend on the processing

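The members depended on the scaling: library totals gave 4730 higher and 6798 lower, the deposited RPKM 2941 and 7588, and a required margin of 2-fold 2096 and 1064, while DESeq2 size factors gave 8217 higher members, 8019 of them shared. Leaving out each library gave 8446 to 9703 higher and 4091 to 4958 lower, more by construction. Calls in all 5 contrasts were 3286 higher and 6986 lower with library totals, and 22623 features were higher than at cleavage when only those 2 stages were fitted. Between other stages, the larger counts kept within 1.5 times except the following, whose cause was not tested. With library totals 82 lower members fell from hatching to larva. With the fit and filter on the 15 libraries of the other stages, chosen after the data were seen, 191 higher members fell from cleavage to blastocyst, 520 lower members rose and 264 fell. With DESeq2 220 higher and 688 lower members rose from hatching to larva. Without a filter 210 higher members fell from cleavage to blastocyst, 374 lower members rose and 245 fell, in place of 447, 113 and 584; with 1 CPM in 3 libraries these were 220, 484 and 266. With only the stages compared, 1945 higher members fell from blastocyst to organ formation, 346 higher members rose and 264 lower members fell from organ formation to hatching, and 595 lower members rose from hatching to larva.

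Leaving out a library gave the following ranges. From cleavage to blastocyst 172 to 494 higher members fell (under 230 without blastocyst replicate 3, cleavage replicates 2 or 3 or any gastrulation library), 189 to 663 lower members fell (377 without blastocyst replicate 1, under 280 without those same 6) and 67 to 460 rose (70 and 67 without blastocyst replicates 1 and 2, over 250 without those 6). From hatching to larva 1001 to 1844 higher members fell and 58 to 143 rose (58 without hatching replicates 1 or 3, 82 without larva replicate 3). There 62 to 149 lower members fell (68 and 62 without hatching replicates 1 and 3, 86 and 88 without larva replicates 2 and 3) and 185 to 444 rose (185 and 193 without hatching replicates 1 and 3, 198 without larva replicate 3). From blastocyst to organ formation 439 to 689 lower members rose, and from organ formation to hatching 106 to 182 fell. Calls in all 5 contrasts ran from 5082 to 6505 higher and from 3527 to 4240 lower.

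With library totals 3 named values changed sign: the log2 ratio to the nearest stage was -0.09 for LOC109091404 and -0.05 for LOC109049108, and the change of LOC109074545 from cleavage was -0.08. Replicate numbers showed no sign of pairing gastrulation libraries with those of other stages. Deviations from the stage mean correlated at -0.123 to 0.0386 for the same replicate number and at -0.0677 to 0.0962 for different numbers. Pairing among the other stages was not examined. With the number as a replicate block 6010 features were higher and 4048 lower in all 5 contrasts, in place of 6249 and 4173, and no count moved by more than 1.5 times. Differences among features of a few counts are limited by depth, from 16326813 counts a library.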

Other observations

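Of the 8403 higher members 21 had no count in any of the other 15 libraries, 11 of them protein-coding and 10 lncRNAs. Of the 4076 lower members 37 had no count in the 3 gastrulation libraries, 18 of them protein-coding and 19 lncRNAs. Features with a count in a library numbered 42678 to 49097 at cleavage, 66934 to 71885 at gastrulation and 75424 to 77023 in the larva.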
